A study of Neotoma lepida with 16 samples.

Results

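Ribosomal proteins are the protein part of the cytoplasmic ribosome, and their transcripts were followed here in the livers of desert woodrats (Neotoma lepida) that had eaten creosote bush or juniper. The set held every array probe whose gene name, with the suffix "_predicted" removed, began with Rpl or Rps and a digit, or was Rplp0, Rplp1 or Rplp2, with the S6 kinase genes left out. It came to 110 of the 41012 probes of the array, for 74 of its 35561 genes or transcripts. Of these, 104 probes were bright enough to be used, and 71 of the 26472 genes tested were ribosomal protein genes, 42 of the large (60S) and 29 of the small (40S) subunit. The other 3 genes, Rpl9, Rpl39 and Rps26, had no probe well above background on any array and were not tested. Rplp0 was not found under that name.

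Ribosomal proteins are made in matched amounts and assembled with ribosomal RNA in the nucleolus. Their mRNAs are abundant and carry a terminal oligopyrimidine tract (TOP) at the 5′ end, through which the growth kinase mTOR sets how much of them is translated. In the liver, feeding and fasting act mainly on that translation. When ribosome assembly fails, some ribosomal proteins bind and block Mdm2, which otherwise restrains p53, and so stabilise p53.

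The 4 groups, with 4 wild-caught animals each, were Mojave animals fed creosote (4 males), Mojave animals fed juniper, Great Basin animals fed creosote and Great Basin animals fed juniper (2 males and 2 females in each of these 3). All 16 had lived in captivity for 3 months on rabbit chow, and the plant was then mixed into the chow in rising amounts for 5 days. The ages were not given, and there was no chow-only group, so that a gene higher on creosote is equally one lower on juniper. Each liver was hybridised to its own dual-dye rat array in red (Cy5) against an equimolar pool of all 16 RNAs in green (Cy3), with no dye exchange.

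A value below is the log2 ratio of an animal over this pool, so that differences between genes in absolute level are not read from it. Differences between groups are log2 differences from a single linear model of the 4 group means with a term for sex, fitted by limma to all 26472 genes. They carry a standard error (SE), and an adjusted p is the Benjamini-Hochberg value over all those genes, called below 0.05. Because the Mojave creosote group held males only, a fitted difference need not equal the difference of the plain group means. Ratios were normalised by loess, which removes the trend of the ratio with brightness array by array, and again by subtracting the array's median alone (median centring). The choice matters for these genes, whose probes lie at the bright end: the median member probe was at the 98.4th percentile of brightness of the probes used, and 60 of 71 were in the brightest decile.

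The probes are rat probes and were not aligned to woodrat transcripts. The share of probes well above background was 48.4% on the dimmest of the 4 slides and 65.5% to 71.2% on the others, and each slide held 1 animal of each group. Each group kept the same position on every slide, so position and group cannot be told apart. Of the 14 hepatocyte markers tested, 7 passed with loess in Mojave animals (Alb at 1.62 ± 0.31), or 50% against 9.57% of all genes, and 5 passed in Great Basin animals, or 35.7% against 4.01%. All of these calls were higher on creosote, while markers such as Pck1 (-0.61 ± 0.35 in Mojave animals) and Apob (-0.49 ± 0.25), which did not pass, had values below 0. In bulk liver, fewer cells of a type and less RNA per cell cannot be told apart. The median ratio of the hepatocyte markers on an array ran from 0.08 to 0.38 in Mojave creosote, from -0.04 to 0.09 in Mojave juniper, from 0.29 to 0.63 in Great Basin creosote and from -0.01 to 0.14 in Great Basin juniper. That of 8 stellate cell and fibroblast markers ran from 0.07 to 0.39, -0.28 to -0.05, -0.18 to 0.33 and -0.32 to 0.12 in the same order. For the other cell type lists examined, the 2 Mojave groups overlapped. The part of these shifts in the results below was not tested.

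In Mojave animals, ribosomal protein transcripts were on the whole higher on creosote than on juniper when the arrays were normalised by loess, and lower when they were only centred on their median. With loess, 52 of the 71 differences were positive and their median was 0.15, against 0 over all genes. With median centring, 15 were positive, and the median was -0.25 against -0.04 over all genes. The change is small per gene in both settings: the quartiles with loess were -0.02 and 0.32. The medians of the 60S and 40S genes were 0.14 and 0.16 under loess.

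The median over the members on each array shows the same reversal. With loess it was 0.29, 0.32, 0.18 and 0.08 in Mojave creosote animals 1 to 4, against 0.06, 0.11, 0.01 and 0.06 in Mojave juniper animals. The groups overlapped in a single animal, Mojave creosote 4, which lay below Mojave juniper 2. With median centring it was 0.68, 0.59, 0.80 and 0.71 in Mojave creosote, against 0.83, 1.03, 0.96 and 1.15 in Mojave juniper, where all 4 creosote animals lay below all 4 juniper animals. In Great Basin animals it was 0.09, 0.07, 0.25 and 0.18 on creosote and 0.14, 0.18, 0.16 and 0.25 on juniper with loess, and the groups overlapped.

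Loess lowered the members by less in Mojave creosote than in the other 3 groups. The median over the members of the loess value minus the centred value was -0.49 ± 0.15 in Mojave creosote and -0.97 ± 0.13 in Mojave juniper (SD, n = 4 each). It was -0.97 ± 0.16 in Great Basin creosote and -0.82 ± 0.13 in Great Basin juniper (SD, n = 4 each). Other bright genes moved with the setting too: over the 2588 genes of the brightest decile that are not ribosomal protein genes, the median Mojave diet difference was -0.03 with loess and -0.49 with median centring. The ribosomal protein median lay above that of the other bright genes in both settings, but the 2 sets were not matched for brightness. Which of the 2 settings is nearer to the true level of these transcripts was not tested.

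**Figure D1:**
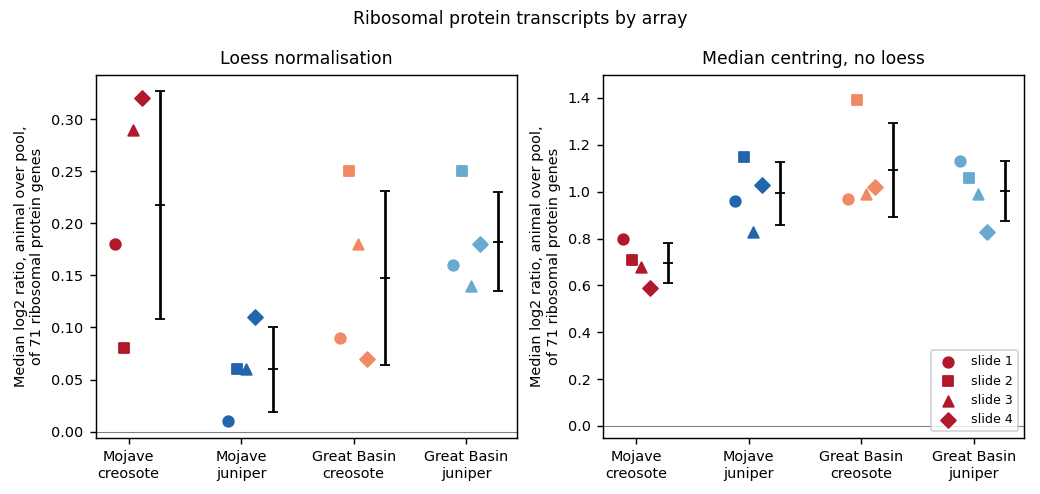
Median log2 ratio (animal over pool) of the 71 ribosomal protein genes on each array, by group, under loess (left) and median centring (right). Points are animals, shaped by slide, and the bar beside them is the mean ± SD (n = 4). Mojave creosote arrays lie mostly above Mojave juniper arrays with loess (0.08 to 0.32 against 0.01 to 0.11) and all below them with median centring (0.59 to 0.80 against 0.83 to 1.15).

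Of the 71 genes, 17 passed the test in Mojave animals with loess, or 23.9%, against 9.57% of all genes tested. Higher were 14 (19.7%, against 3.83% of all genes) and lower were 3 (4.23%, against 5.74%). Calls were also more frequent among other bright genes: of the 2588 in the brightest decile, 334 were higher and 419 lower with loess. The 4 creosote animals did not overlap the 4 juniper animals for 26 genes, or 36.6%, against 16.7% of all genes. In 21 of these the creosote animals were higher (29.6%, against 7.35%) and in 5 lower (7.04%, against 9.39%). With median centring 13 genes passed, 1 higher and 12 lower, or 18.3% against 18% of all genes. The 1 higher gene made 1.41% against 2.45%, and the 12 lower ones 16.9% against 15.5%. Of the 2588 other bright genes, 50 were higher and 1171 lower when centred. Rpl41, Rpl5, Rps12 and Rps14 passed in both settings with the same sign, and the sign of 39 of the 71 differences depended on the setting. The 4 genes that passed with loess and changed sign, none of them past the test when centred, were Rpl14 (0.40 and -0.06 with the 2 settings), Rpl19 (0.39 and -0.08), Rps15a (0.39 and -0.09) and Rps18 (0.27 and -0.19).

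**Figure D2:**
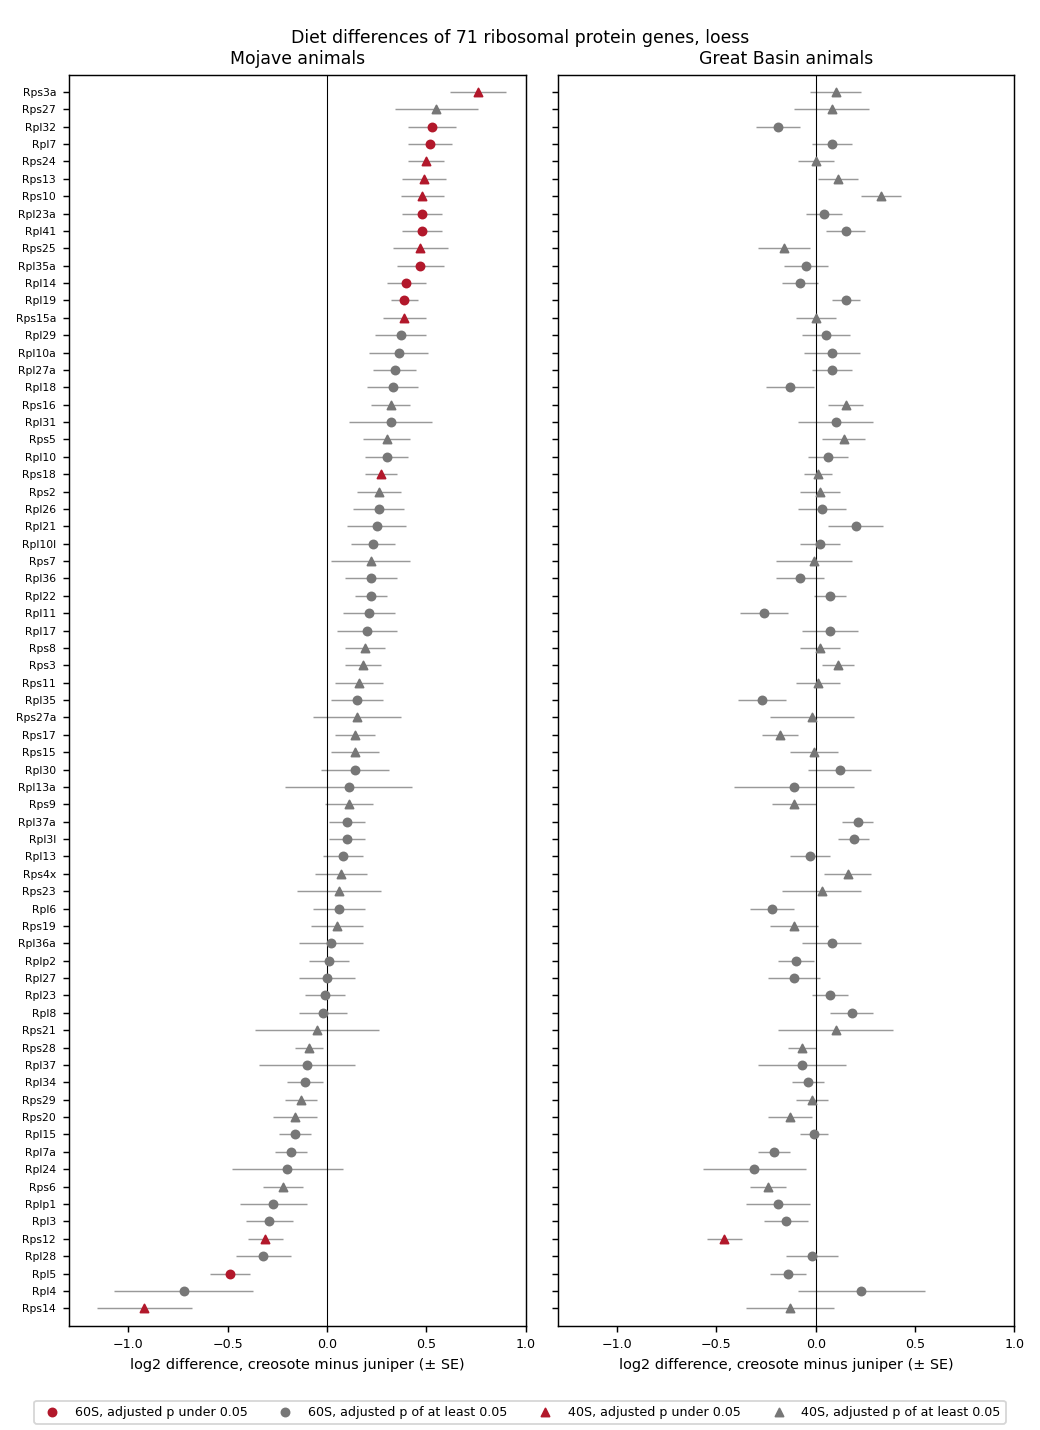
Log2 difference, creosote minus juniper, of each of the 71 ribosomal protein genes in Mojave (left) and Great Basin animals (right) with loess, sorted by the Mojave value; bars are ± SE. Red symbols passed an adjusted p of 0.05: 17 genes in Mojave and Rps12 in Great Basin. With median centring the Mojave values shift down and 12 of the 13 genes called are lower on creosote.

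The genes called with the same sign in both settings are taken first. Rpl5 binds the 5S ribosomal RNA and is one of the proteins that hold Mdm2. Its log2 ratio was -0.29, -0.61, -0.16 and -0.27 in Mojave creosote animals, against 0.26, 0.10, 0.17 and 0.25 in Mojave juniper animals. Every creosote animal lay below every juniper animal. Rpl5 fell by 0.49 ± 0.10 (1.40-fold, limma adjusted p = 0.00641) with loess and by 0.98 with median centring (adjusted p = 0.000717). The within-slide differences ran from -0.71 to -0.34, lower on 4 of 4 slides. Its other 2 probes gave -0.16 and -0.50, neither past the test. On the Great Basin side Rpl5 differed by -0.14 ± 0.09 (adjusted p = 0.475). Rpl11, its partner in the 5S particle, did not pass: its difference in Mojave animals was 0.21 ± 0.13 (adjusted p = 0.365) with loess and -0.27 when centred. Rpl23, a further Mdm2 binder with a dim probe, was at -0.01 ± 0.10.

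Rps14 lies on the platform of the small subunit, and loss of 1 copy causes the anaemia of the 5q- syndrome in humans. Its ratio was -0.69, -0.74, -0.31 and -0.43 in Mojave creosote, against 0.52, 0.61, -0.04 and 0.08 in Mojave juniper. The groups did not overlap, and the juniper animals fell into a higher and a lower pair. Rps14 fell by 0.92 ± 0.24 (1.90-fold, limma adjusted p = 0.0247), the largest difference of the family in this comparison, and by 1.42 when centred (adjusted p = 0.0032). The loess call was lost without Mojave creosote animal 1 or 2 or Mojave juniper animal 1 or 2, with adjusted p up to 0.11. Great Basin animals had 0.96, -0.18, 0.85 and 0.52 on creosote and 0.83, 0.23, 0.66 and 0.96 on juniper, and overlapped. Across populations, Rps14 on creosote differed by -1.17 ± 0.24 (Mojave minus Great Basin, adjusted p = 0.0705). It is measured by a single probe.

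Rps12, a protein of the beak of the small subunit that cells of the fruit fly use to sense ribosomal defects, was lower on creosote in both populations. Its ratio was -0.15, 0.03, -0.14 and 0.05 in Mojave creosote, against 0.35, 0.27, 0.09 and 0.36 in Mojave juniper. It was -0.21, 0.13, 0.00 and 0.06 in Great Basin creosote, against 0.52, 0.45, 0.38 and 0.49 in Great Basin juniper. Neither pair of groups overlapped. Rps12 fell by 0.46 ± 0.09 in Great Basin animals (1.38-fold, limma adjusted p = 0.00575), and this call was kept with each of the 16 animals left out in turn, but not with median centring (-0.33, adjusted p = 0.186). In Mojave animals it fell by 0.31 ± 0.09 (adjusted p = 0.0439) with loess and by 0.80 when centred (adjusted p = 0.00172). The Mojave loess call was lost in 11 of the 16 fits that leave out 1 animal, with adjusted p up to 0.168. A second probe gave -0.22 in Mojave and -0.25 in Great Basin animals, neither past the test.

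Rpl41, the smallest ribosomal protein and part of a bridge between the subunits, was the only gene called higher on creosote under both settings. Its ratio was 0.43, 0.51, 0.48 and 0.07 in Mojave creosote, against 0.01, -0.16, -0.09 and -0.14 in Mojave juniper. All creosote animals lay above all juniper animals, Mojave creosote 4 by the least. It rose by 0.48 ± 0.10 (1.39-fold, limma adjusted p = 0.00887) with loess and by 0.34 when centred (adjusted p = 0.0407). The loess call was kept whichever animal was left out, but was lost without the dimmest slide (adjusted p = 0.0653), in males only (0.0855) and with the animal channel alone (0.0662). The centred call was lost with slide as a block (adjusted p = 0.0581) and without the dimmest slide (adjusted p = 0.118). Among Great Basin animals it differed by 0.15 ± 0.10 (adjusted p = 0.464).

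The remaining 13 genes were higher on creosote in Mojave animals with loess and did not pass when centred. Largest was Rps3a, of the small subunit platform beside the mRNA exit. Its ratio was 0.95, 0.58, 0.57 and 0.16 in Mojave creosote, against -0.04, -0.43, -0.04 and -0.20 in Mojave juniper, with no overlap. It rose by 0.76 ± 0.14 with loess (1.69-fold, limma adjusted p = 0.00385) and was at 0.31 when centred. Its adjusted p stayed at or below 0.0253 whichever animal was left out. Great Basin animals differed by 0.10 ± 0.13.

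Of the other small subunit genes, Rps24, which is mutated in the human congenital anaemia of Diamond and Blackfan, had ratios of 0.69, 0.53, 0.43 and 0.21 in Mojave creosote, against 0.05, -0.10, -0.03 and 0.05 in Mojave juniper. The groups did not overlap, and Rps24 rose by 0.50 ± 0.09 with loess (limma adjusted p = 0.00334), against 0.04 when centred. Rps10, which is ubiquitinated on collided ribosomes in mammalian cells, had 0.40, 0.43, 0.28 and 0.46 in Mojave creosote, against 0.06, -0.06, -0.13 and -0.06 in Mojave juniper. It rose by 0.48 ± 0.11 with loess (adjusted p = 0.00906) and was at 0.03 when centred. Great Basin animals had Rps10 ratios of 0.30, 0.36, 0.32 and 0.73 on creosote, against 0.23, 0.12, -0.14 and 0.19 on juniper, again without overlap. There it differed by 0.33 ± 0.10 with loess (adjusted p = 0.0724) and rose by 0.49 when centred (adjusted p = 0.00836), the only centred call of that comparison (1.41%, against 4.37% of all genes in either direction and 2.77% higher).

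Rps13 rose by 0.49 ± 0.11 with loess (limma adjusted p = 0.00921) and was at 0.04 when centred; Mojave creosote 3 at -0.08 lay within the juniper range of -0.31 to -0.06, and on 1 of the 4 slides the difference was -0.02. Rps25, which some viral RNAs need to start translation, rose by 0.47 ± 0.14 with loess (adjusted p = 0.0489) and was at 0.00 when centred. Rps15a rose by 0.39 ± 0.11 (adjusted p = 0.0337) and Rps18 by 0.27 ± 0.08 (adjusted p = 0.0455) with loess, and both were below 0 when centred. These last 3 calls were weak. Rps15a was lost without Mojave creosote 1 or 2 or Mojave juniper 1, 3 or 4, Rps18 in 12 and Rps25 in 13 of the 16 fits that leave out 1 animal. A second Rps15a probe also passed (0.50 ± 0.12).

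Of the large subunit genes, Rpl32 had 0.49, 0.47, 0.12 and 0.11 in Mojave creosote, against -0.11, -0.21, -0.19 and -0.25 in Mojave juniper. It rose by 0.53 ± 0.12 with loess (limma adjusted p = 0.0118) and was at 0.08 when centred. Great Basin animals differed by -0.19 ± 0.11, and the difference between the populations' diet effects, 0.73 ± 0.17, had the lowest adjusted p of the family with loess (0.101), but was 0.12 when centred (adjusted p = 0.657). Rpl7 had 0.54, 0.06, 0.24 and 0.05 in Mojave creosote, against -0.20, -0.38, -0.21 and -0.32 in Mojave juniper, and rose by 0.52 ± 0.11 with loess (adjusted p = 0.00841), against 0.05 when centred. The groups did not overlap for either gene.

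Rpl19, whose long helix reaches across to the small subunit, had 0.36, 0.43, 0.39 and 0.20 in Mojave creosote, against -0.03, -0.04, 0.03 and -0.06 in Mojave juniper, and these groups did not overlap. It rose by 0.39 ± 0.07 with loess (limma adjusted p = 0.00432) but was at -0.08 when centred, and a second probe gave 0.16 with loess. Rpl23a, at the mouth of the tunnel through which the new protein leaves, rose by 0.48 ± 0.10 with loess (adjusted p = 0.0064) and was at 0.05 when centred. Rpl35a, another gene of the Diamond-Blackfan anaemia, rose by 0.47 ± 0.12 with loess (adjusted p = 0.0203) and was at 0.02 when centred, while its second probe was at -0.10; the call was lost without Mojave juniper 1. Rpl14 rose by 0.40 ± 0.10 with loess (adjusted p = 0.0201) but was at -0.06 when centred, and its call was lost without Mojave creosote 1 or 2 or Mojave juniper 1.

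**Figure D3:**
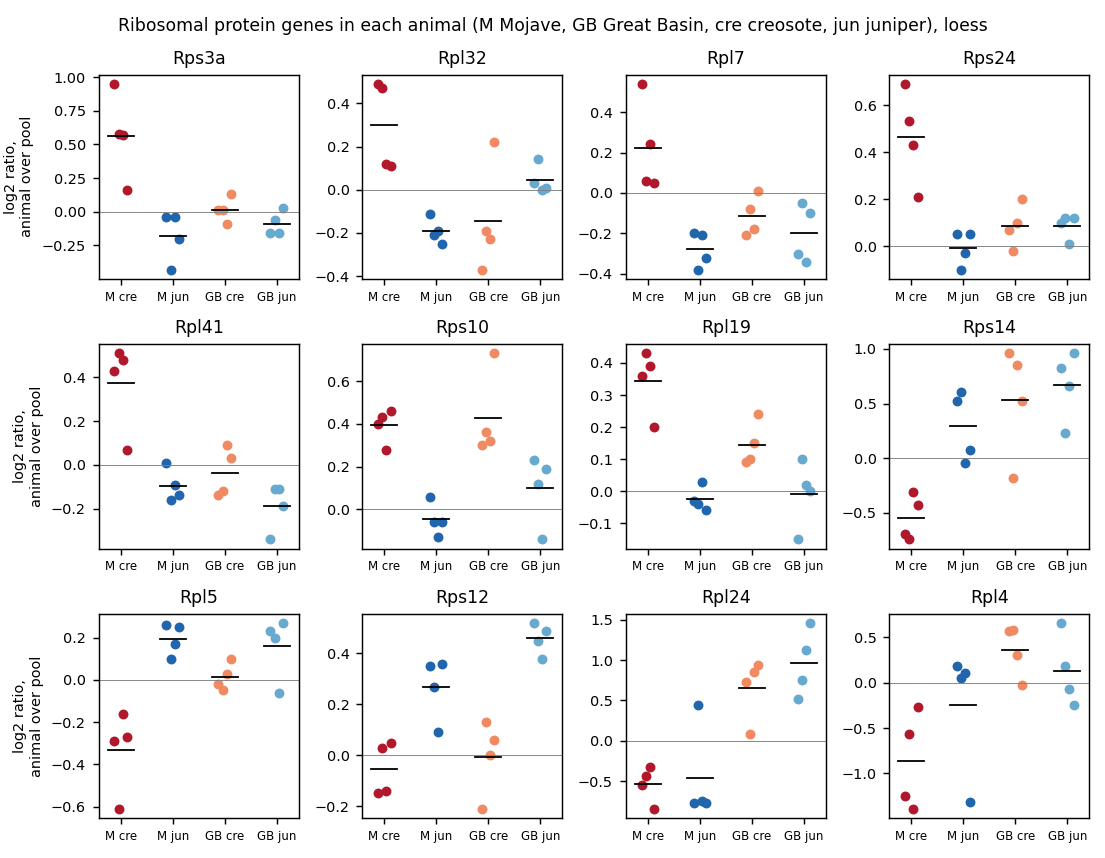
Log2 ratio (animal over pool, loess) of 12 ribosomal protein genes in each of the 16 animals, by group; black lines are group means (n = 4). Rps3a, Rpl32, Rpl7, Rps24, Rpl41, Rps10 and Rpl19 are higher in Mojave creosote than in Mojave juniper animals without overlap with loess. When centred only Rpl41 of these is called, Rps3a is at 0.31, Rpl32, Rpl7, Rps24 and Rps10 are between 0.03 and 0.08, and Rpl19 is at -0.08. Rps14, Rpl5 and Rps12 are lower. Rpl24 is lower in Mojave than in Great Basin animals on the same diet without overlap. Across diets, Mojave juniper 2 alone lies above a Great Basin animal, creosote 2.

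The further lower genes of the centred analysis had loess values on the same side of 0, apart from Rplp2. With median centring, the acidic stalk protein Rplp1, which recruits elongation factors, fell by 0.76, Rplp2 by 0.47, Rpl3 near the peptidyl transferase centre by 0.76 and Rpl28, which budding yeast lacks, by 0.80. Rps6, the substrate of the S6 kinases, fell by 0.69, Rpl7a by 0.66, Rpl15 and Rps20 by 0.64 each and Rpl8 by 0.49 in that setting. With loess none of these passed: Rplp1 was at -0.27 ± 0.17, Rplp2 at 0.01 ± 0.10, Rpl3 at -0.29 ± 0.12, Rpl28 at -0.32 ± 0.14 and Rps6 at -0.22 ± 0.10. Rps6 had 0.10, 0.35, 0.26 and 0.08 in Mojave creosote, against 0.47, 0.50, 0.40 and 0.37 in Mojave juniper with loess, without overlap.

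Some large differences did not pass in either setting. Rpl4, which lines the exit tunnel, had -1.25, -0.56, -1.39 and -0.27 in Mojave creosote, against 0.19, 0.05, 0.11 and -1.32 in Mojave juniper. The low value of Mojave juniper 4 makes the groups overlap, and the difference was -0.72 ± 0.35 with loess (limma adjusted p = 0.238), with an adjusted p of 0.071 when centred. Rps27 had 0.28, 0.90, 0.44 and -0.02 in Mojave creosote, against -0.15, -0.06, -0.31 and -0.25 in Mojave juniper, and its difference of 0.55 ± 0.21 did not pass (adjusted p = 0.119).

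Further probes of the same genes were read with loess. They come from the same arrays and the same loess fit, so they cannot check the dependence on the setting. Most member differences were positive with loess, so that a shared sign is likely even for probes of different genes. There were 33 used probes besides the brightest one, for 21 genes, and 24 of them had the sign of the brightest probe in the Mojave diet comparison. For the genes called, 6 of 7 further probes had the same sign, and 3 of these had an unadjusted p below 0.05 by limma, as did 22.1% of all genes in either direction. Rpl29, Rpl31 and Rps2, chosen here after their values were seen, did not pass by their brightest probe (0.37, 0.32 and 0.26) but had 2 further probes each that did: 0.49 and 0.57 for Rpl29, 0.61 and 0.45 for Rpl31 and 0.54 and 0.32 for Rps2. With each probe tested by itself, 24 of 104 probes passed, 21 higher and 3 lower, while 3025 of all 30083 probes used (10.1%) passed in either direction. The shares of all probes by direction are not given here.

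In Great Basin animals few ribosomal protein genes differed between the diets. With loess 1 of the 71 genes passed, Rps12, which fell (1.41%, against 4.01% of all genes in either direction and 1.92% lower), and at an unadjusted p below 0.05 there were 4 higher and 5 lower (12.7%, against 16.9% of all genes). The median difference was 0.00 with loess, with 36 positive and 35 negative values, and 0.14 with median centring, against -0.01 and 0.01 over all genes. Groups without overlap numbered 4 (5.63%, against 10.5% of all genes), 2 of them higher on creosote (2.82%, against 5.05%) and 2 lower (2.82%, against 5.44%). Beyond Rps12 and Rps10, the widest loess differences were Rpl4 at 0.23 ± 0.32, Rpl37a at 0.21 ± 0.08 and Rpl21 at 0.20 ± 0.14 on the higher side. On the lower side they were Rpl24 at -0.31 ± 0.26, Rpl35 at -0.27 ± 0.12, Rpl11 at -0.26 ± 0.12 and Rps6 at -0.24 ± 0.09.

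Whether the diet effect itself differed between the populations was tested by the interaction, the Mojave diet effect minus that of Great Basin. With loess none of the 71 genes passed, and 0% of all genes did; 19 members had an unadjusted p below 0.05 by limma, 17 of them positive (26.8%, against 13% of all genes). The median interaction of the family was 0.16 with loess, and it was -0.39 with median centring, where 6 genes passed, all negative (8.45%, against 9.13% of all genes in either direction and 8.65% negative): Rpl15, Rpl28, Rpl5, Rpl8, Rps10 and Rps14. A larger Mojave than Great Basin diet effect of the family is therefore not shown by this test with loess, and its sign depends on the setting. The 2 diet effects compare different animals, but they come from the same model, with a shared sex term and residual variance. Because the Mojave creosote group held males only, the fitted Mojave effect also draws on Great Basin animals through the sex term. With loess, 32 genes were higher and 15 lower on creosote in both populations. Another 20 were higher in Mojave and lower in Great Basin animals, and 4 were the reverse. The matching shares over all genes are not given here.

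Averaged over the populations, 14 of 71 genes passed for creosote minus juniper with loess (19.7%, against 12.1% of all genes), 9 higher (12.7%, against 5.72%) and 5 lower (7.04%, against 6.38%). Of the 2588 other genes of the brightest decile, 403 were called higher and 504 lower, so the family was not called more often than other bright genes. Of the 14 members, 11 were already called in Mojave animals. The 3 others were Rps16, whose tail reaches the tRNA in the P site (0.24 ± 0.07, limma adjusted p = 0.033), Rps6 (-0.23 ± 0.07, adjusted p = 0.039) and Rpl7a (-0.19 ± 0.06, adjusted p = 0.0333). Each was lost in at least 8 of the 16 fits that leave out 1 animal. Rps10 (0.41 ± 0.07) and Rps12 (-0.39 ± 0.06) were called with loess and with median centring and whichever animal was left out. Rps10 was lost only when centred without the dimmest slide (0.26, limma adjusted p = 0.0753), and Rps12 under none of the settings tried. With median centring 9 genes passed (12.7%, against 14.6% of all genes), 2 higher (2.82%, against 4.23%) and 7 lower (9.86%, against 10.4%). Of the 2588 other bright genes, 174 were higher and 720 lower when centred.

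**Figure D4:**
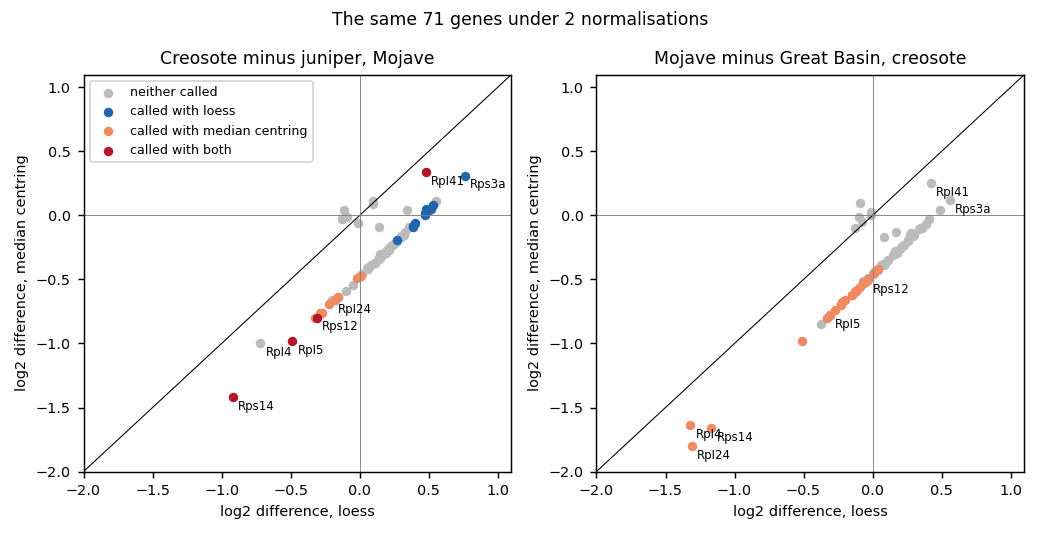
Log2 differences of the 71 genes under loess (horizontal) and median centring (vertical), for creosote minus juniper in Mojave animals (left) and Mojave minus Great Basin on creosote (right); the diagonal marks equal values. On the left 67 of 71 genes and on the right 65 lie below the diagonal: the median is 0.15 with loess and -0.25 when centred on the left, and 0.01 and -0.39 on the right.

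Between the populations, with loess, no ribosomal protein gene passed on creosote (0%, against 0.0718% of all genes) or on juniper (0%, against 0.0113%). By limma 22 genes had an unadjusted p below 0.05 on creosote, 15 higher and 7 lower in Mojave (31%, against 14.1% of all genes). On juniper 6 did, all lower (8.45%, against 8.03% of all genes). The median difference on creosote was 0.01, and 9 genes had groups without overlap (12.7%, against 6.03% of all genes), 3 higher (4.23%, against 2.8%) and 6 lower (8.45%, against 3.22%). On juniper it was -0.13, with 61 of 71 genes lower in Mojave animals, and 11 genes had groups without overlap, all lower (15.5%, against 6.86% of all genes in either direction and 3.3% lower). When centred, the juniper median was 0.01, against 0.01 over all genes.

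With median centring, 21 genes were lower in Mojave than in Great Basin animals on creosote and none was higher (29.6%, against 11.8% of all genes in either direction and 11.1% lower), and the median was -0.39. Other bright genes were lower too: of the 2588 in the brightest decile, 894 were called lower and 1 higher, with a median of -0.47. The lowest of the family were Rpl24 at -1.80, Rps14 at -1.66 and Rpl4 at -1.64, the same 3 that stood lowest with loess (-1.31, -1.17 and -1.32). Of the 21, 7 also had an unadjusted p below 0.05 with loess. Without the dimmest slide the centred count was 0. The 7 are Rpl15, Rpl21, Rpl24, Rpl28, Rpl4, Rpl5 and Rps14.

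Rpl24, which forms a bridge to the small subunit and joins the large subunit late, in the cytoplasm, was the one gene that differed between the populations averaged over the diets (1.41% of the family, against 0.034% of all genes in either direction and 0.0302% lower). Its ratio was -0.54, -0.44, -0.32 and -0.84 in Mojave creosote, against 0.73, 0.08, 0.85 and 0.94 in Great Basin creosote. On juniper it was -0.77, 0.44, -0.74 and -0.77 in Mojave, against 0.52, 0.75, 1.13 and 1.46 in Great Basin. Every Mojave animal but juniper 2 lay below every Great Basin animal, and on the same diet the populations did not overlap. Rpl24 fell by 1.37 ± 0.19 (2.58-fold, limma adjusted p = 0.0239) with loess and fell by 1.56 when centred (adjusted p = 0.00791), again the only gene of the family (1.41%, against 0.159% of all genes and 0.151% lower). On each diet alone the loess difference was -1.31 ± 0.28 (adjusted p = 0.0749) and -1.43 ± 0.26 (adjusted p = 0.136). The loess call was lost with slide as a block (adjusted p = 0.0562), in males only (0.338), without the dimmest slide (0.384) and without Mojave creosote 4, Mojave juniper 3 or 4 or Great Basin juniper 3 or 4 (up to 0.119). The diet differences of Rpl24 did not pass.

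The members differed in how much animals of one group varied. The residual SD, the spread left after group and sex, had a median of 0.161 over the family, against 0.126 over all genes and 0.151 over the mitochondrial ribosomal proteins. It was largest for Rpl4 (0.524), Rpl13a (0.491), Rps21 (0.467) and Rpl24 (0.427). Rpl13a, which can leave the ribosome to silence inflammatory mRNAs in human myeloid cells, ran from -0.75 to 0.72 within Mojave creosote, and Rps21 from -0.26 to 1.24 within Great Basin creosote. It was smallest for Rps28 (0.077), Rpl19 (0.085), Rps18 (0.097) and Rpl15 (0.098), of which Rps28 has a dim probe. After group and sex were removed, the median correlation of a pair of the 69 members measured on all 16 arrays was 0.15 with loess and 0.32 when centred, with arrays as points, which the genes share. It was 0.13 among 60S genes, 0.18 among 40S genes and 0.15 between them with loess, and -0.04 between members and mitochondrial ribosomal proteins.

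Forms that mammals use in single tissues, or that have a duplicate gene, were on the array. Rpl3l, a paralogue of Rpl3 used in striated muscle, differed by 0.10 ± 0.09 in Mojave and 0.19 ± 0.08 in Great Basin animals and did not pass. Rpl10l, a paralogue of Rpl10 used in the testis, differed by 0.23 ± 0.11 in Mojave animals, beside 0.30 ± 0.11 for Rpl10. Its probe stood at the 98.4th percentile of brightness, and since the 2 transcripts are nearly identical, signal of one cannot be told from that of the other. Rps4x was at 0.07 ± 0.13 in Mojave and 0.16 ± 0.12 in Great Basin animals. For sex, no member differed between females and males by limma (0%, against 0.00378% of all genes, and 2 members at an unadjusted p below 0.05).

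The genes around the ribosome were compared next, from lists chosen with earlier results known. Among 315 predicted loci that the array describes as similar to ribosomal proteins, a list drawn up after the files were seen, 62 were higher and 2 lower on creosote in Mojave animals with loess, with a median of 0.11, where 3.83% of all genes were called higher and 5.74% lower. Centred, 5 were higher and 40 lower and the median was -0.06, where 2.45% of all genes were called higher and 15.5% lower. These all-gene shares are the background for the Mojave counts of the lists that follow as well. The Great Basin count of the 315 was 4 higher and 4 lower with loess, where 4.01% of all genes were called in either direction and 1.92% lower. These 2 shares are the background for the Great Basin loess counts that follow. Probes for these loci can share sequence with the genes they resemble and are not separate evidence. Ribosomal proteins named outside the rule did not pass with loess: Gnb2l1, which encodes the 40S scaffold Rack1, was at 0.56 ± 0.18 (limma adjusted p = 0.0698), Rpsa at 0.05 ± 0.14 and Fau at -0.02 ± 0.14 in Mojave animals.

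The mitochondrial ribosome, which makes the few proteins encoded in that organelle, was examined next. Of 56 mitochondrial ribosomal protein genes, 2 rose and 7 fell on creosote in Mojave animals with loess (16.1%, against 9.57% of all genes in either direction), with a median of -0.04. Mrpl47 (0.42 ± 0.08) and Mrpl23 (0.48 ± 0.11) were the 2 higher ones, and Mrps10 (-0.69 ± 0.11), Mrpl38 (-0.65 ± 0.10) and Mrpl15 (-0.67 ± 0.14) led the lower ones by p. For Great Basin, Mrpl38 (-0.49 ± 0.09) and Mrps10 (-0.37 ± 0.10) passed, both lower. With median centring 21 were called lower and none higher in Mojave animals, where 15.5% of all genes were called lower.

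Of 35 factors that assemble ribosomes, 9 were called lower on creosote in Mojave animals with loess (25.7%, against 5.74% of all genes) and none higher, with a median of -0.11. With median centring 18 were called lower (51.4%, against 15.5%). The centred median was -0.49, against -0.04 over all genes and -0.49 over the 2588 other genes of the brightest decile. The assembly factors were not matched to those genes for brightness. The other 26 did not pass with loess, and some of them had values above 0, such as Nolc1 at 0.35 ± 0.13 and Imp3 at 0.26 ± 0.12. Bysl, needed to mature the small subunit, fell by 0.54 ± 0.09 (limma adjusted p = 0.00143). Senp3, a nucleolar SUMO protease, fell by 0.64 ± 0.11 (adjusted p = 0.00258), and the helicase Ddx47 fell by 0.76 ± 0.15 (adjusted p = 0.00589). None of the 35 passed in Great Basin animals with loess. Of 9 genes of RNA polymerase I transcription, only Baz2a, a silencer of ribosomal RNA genes, passed with loess, higher by 1.63 ± 0.11 in Mojave and 1.40 ± 0.10 in Great Basin animals.

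Other TOP mRNAs were examined in the same way. Of 19 tested, 2 fell on creosote in Mojave animals with loess and none rose (10.5%, against 5.74% of all genes called lower), with a median of -0.07: the elongation factor Eef2 fell by 0.46 ± 0.09 (limma adjusted p = 0.00667) and the poly(A)-binding protein Pabpc1 by 0.72 ± 0.15 (adjusted p = 0.00691). With median centring 7 fell (36.8%, against 15.5%). Of 13 kinases and factors that act on this translation, 1 rose and 4 fell in Mojave animals with loess (38.5%, against 9.57% of all genes in either direction). Ddit4, an inhibitor of mTOR, rose by 1.41 ± 0.33 (adjusted p = 0.0128), while the translation repressor Eif4ebp1 fell by 1.15 ± 0.16 (adjusted p = 0.000528), the mTOR activator Rheb by 0.74 ± 0.11 (adjusted p = 0.000801), Akt1 by 0.80 ± 0.14 (adjusted p = 0.00253) and the TOP-binding protein Larp1 by 0.48 ± 0.12 (adjusted p = 0.0153). Of these, Eif4ebp1 alone passed in Great Basin animals (-0.79 ± 0.14).

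**Figure D5:**
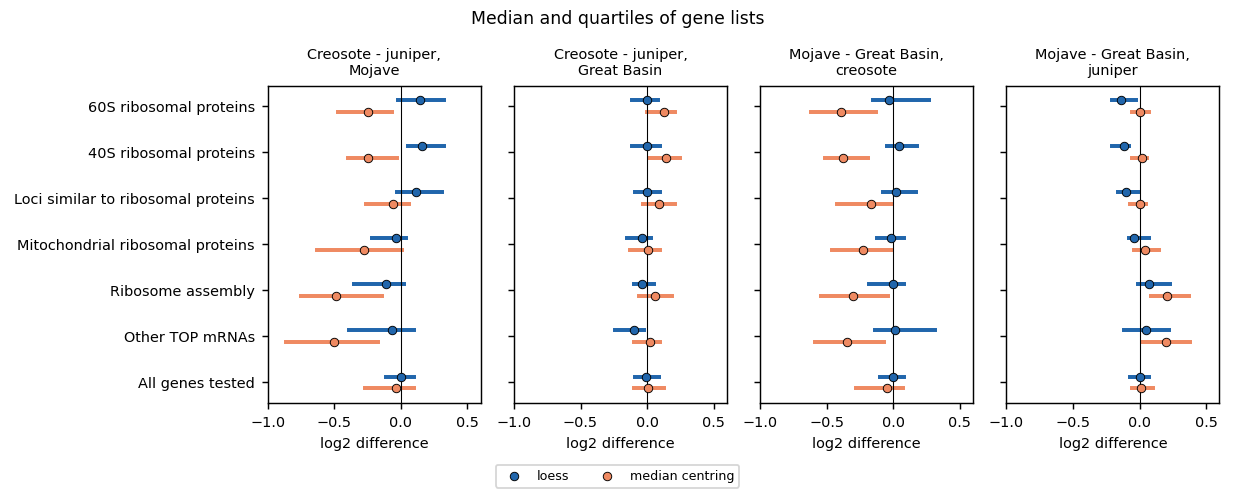
Median (points) and quartiles (bars) of the log2 differences (horizontal) of 7 gene lists, down the page, in 1 panel for each of the 4 comparisons, under loess (blue) and median centring (orange). In Mojave animals the 60S and 40S genes lie to the right of 0 with loess (medians 0.14 and 0.16) and to the left when centred, and ribosome assembly has medians of -0.11 with loess and -0.49 when centred.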

How the data were processed

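The deposited scanner files hold linear intensity values per spot for both dyes, written by Agilent Feature Extraction 9.1.3.1 per the file headers. The table deposited with the series matched log2 of the processed red over green signal to within 5e-10, so it was taken as log2 ratios of animal over pool with no further centring. The mean and local background signals were read again in R 4.3.3 with limma 3.58.1, corrected by normexp (offset 50), and normalised by loess or, as the alternative, by median centring alone. Control spots had no weight and outlier spots were left out. A probe was used when well above background in red on at least 4 of 16 arrays and measured on at least 2 arrays of each group. A gene took its brightest probe, which left 26472 genes. Tests were two-sided (residual df 11). The fit was tested on simulated data.

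Named were all members past the threshold, the 5 highest and 5 lowest in each diet or population comparison, the most and least variable 4, and stalk, Mdm2-binding and duplicate-gene forms. Members and lists were chosen with earlier results of these data known. The number of arrays limits precision: the median SE of a member was 0.12 for the Mojave and 0.11 for the Great Basin diet difference. The 4 groups were compared by diet within population, by population within diet, and by their interaction. No probe, promoter or protein sequence was used here.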

Additional observations from a re-analysis of the deposited data

Results flagged for a closer look

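Each group of 4 animals was examined for a single value far from the others, over 45 items (the named genes and 4 array medians), all with loess except where said. Of 180 groups examined, 12 held such a value, and chance alone gives about 1 in 20.

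In Mojave creosote, Rpl21 was 0.60 in animal 1, against 0.15 to 0.20 in the others, and Rpl3 was -0.50 in animal 2, against -0.04 to -0.01. In Mojave juniper, Rpl4 was -1.32 in animal 4, against 0.05 to 0.19, Rpl24 was 0.44 in animal 2, against -0.77 to -0.74, Rpl23a was 0.23 in animal 2, against 0.02 to 0.03, and Rpl37a was 0.22 in animal 1, against -0.13 to -0.09. Mojave juniper 2 is the only Mojave animal whose Rpl24 lay above that of a Great Basin animal, creosote 2 at 0.08. Without Mojave juniper 2, the population difference of Rpl24 averaged over the diets was -1.46 (limma adjusted p = 0.00442).

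In Great Basin creosote, Rps10 was 0.73 in animal 4, against 0.30 to 0.36, and with median centring the member median of animal 3 was 1.39, against 0.97 to 1.02. In Great Basin juniper, Rpl11 was 0.38 in animal 2, against 0.09 to 0.11, Rpl14 was 0.10 in animal 1, against 0.28 to 0.30, and Rpl23 was 0.02 in animal 2, against -0.05 to -0.04. The median of the 60S genes was 0.23 in animal 4 of that group, against 0.17 to 0.18.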

How the results depend on the processing

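Median centring moved the family most and the cause was not tested. The median Mojave diet difference was 0.15 with loess and -0.25 when centred, -0.25 when centred with slide as a block and -0.27 when centred without the dimmest slide (the slide block and the slide left out were combined with centring after seeing the data). Over the same 3 settings it was 0.14, 0.13 and 0.19 for the Great Basin diet, -0.39, -0.39 and -0.42 for the populations on creosote and 0.01, 0.01 and 0.06 on juniper. Males alone gave -0.09 for the Great Basin diet.

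Signs changed under those 3 settings for Rpl14 (-0.06, -0.06 and -0.04), Rpl19 (-0.08, -0.07 and -0.10), Rps15a (-0.09, -0.08 and -0.11) and Rps18 (-0.19, -0.21 and -0.21). They also changed for Rps10 (-0.01) and Rps25 (-0.06) when centred without the dimmest slide.

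The counts in this and the next paragraph are of members only, and the calls over all genes moved with the setting too. From loess to median centring, the all-gene share rose from 9.57% to 18% for the Mojave diet. It rose from 0.0718% to 11.8% for the populations on creosote and from 0% to 9.13% for the interaction. A changed count is therefore not by itself particular to the family. Calls in the Mojave diet comparison numbered 6 with the software's processed signals, 6 with the animal channel alone and 3 in males, against 17, all fewer. The processed signals, the animal channel alone and a smaller offset kept a positive median (0.13 to 0.16). Great Basin diet calls were 0, 2 and 0 in these first 3 settings, and 2 each with the slide block, the replicate block and centring with the slide block. Averaged over populations they were 5, 7 and 3, 8 without the dimmest slide, and 9, 9 and 4 in the 3 centred settings, against 14. For the populations on creosote 0 became 21 when centred, 26 when centred with the slide block and 4 without the sex term; on juniper, 1 with array weights. Interaction calls were 6, 10 and 4 in the centred settings. The call of Rpl24 averaged over diets was lost (0) with processed signals, the animal channel alone, the slide block, males only, and without the dimmest slide with or without loess; centred with the slide block 3 genes passed.

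Leaving out 1 animal at a time gave 11 to 20 calls in the Mojave diet comparison, 1 to 1 in Great Basin, 0 to 4 for the populations on creosote, 0 to 1 on juniper, 0 to 1 for the interaction, 9 to 14 averaged over populations and 0 to 2 averaged over diets. The medians ran from 0.12 to 0.20, -0.04 to 0.03, -0.02 to 0.06 and -0.15 to -0.10 in the 4 simple comparisons. The labels do not say whether equal replicate numbers pair the animals. Same-numbered arrays correlated at -0.17 to 0.14 and the others at -0.25 to 0.17, which cannot settle it. With the replicate number as a block 15 genes passed in the Mojave diet comparison, 12 higher and 3 lower. Rpl34, well above background on 4 arrays, Rps29 (11), Rps28 and Rpl23 (14 each) are limited by dim signal.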
